A study of Mus musculus with 16 samples.

Results

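The pyruvate dehydrogenase complex, its kinases and its phosphatases were examined in mouse liver as a set of 10 genes out of the 19938 genes measured. The set holds the 4 kinases Pdk1, Pdk2, Pdk3 and Pdk4, the phosphatase subunits Pdp1 and Pdp2, and the complex subunits Pdha1, Pdhb, Dlat and Pdhx. Members were taken by gene symbol, and each of the 10 had 1 probe set that names it alone, so no choice between probe sets was needed. The livers came from a mouse model of methylmalonic acidemia, a disorder of propionate breakdown caused by missing methylmalonyl-CoA mutase (Mut, now named Mmut). Heterozygotes were Mut +/- and mutants Mut -/-, and both genotypes carried TgINS-MCK-Mut, a transgene that drives Mut from an insulated muscle creatine kinase promoter, so that mutants keep the enzyme in muscle. All were males of 4 months. Each genotype was sampled on normal diet without a fast and after a fast, with different mice in each of the 4 groups, 4 livers a group and 1 Affymetrix Mouse Gene 1.0 ST array a liver. Heterozygotes were fasted for 12 hours and mutants for 8 to 12 hours, so among fasted mice genotype and length of the fast cannot be told apart.

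Pyruvate dehydrogenase turns pyruvate from glycolysis into acetyl-CoA inside mitochondria, a step that animals cannot run backwards. The kinases phosphorylate the E1 alpha subunit and switch the complex off, and the phosphatases remove that phosphate and switch it on. In the fasted liver the complex is held back, which spares pyruvate for glucose synthesis while fatty acids supply acetyl-CoA, and Pdk4 is the kinase best known for being raised at the level of RNA by fasting and by fatty acids.

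The largest change among the members was in Pdk4, which read 4.50-fold higher (95% interval 2.56 to 7.94) in unfasted mutants than in unfasted heterozygotes and 3.15-fold higher (1.78 to 5.54) in fasted mutants than in fasted heterozygotes, with n = 4 in each group. Pdp1, the phosphatase subunit, was higher in mutants in both states too, by 1.47-fold (1.31 to 1.64) unfasted and 1.37-fold (1.22 to 1.53) fasted. Of the other 8 members, Pdk3 and Dlat passed between fasted genotypes and none passed unfasted, where 13.6% and 7.94% of all genes passed. Fasting moved 1 member past the test in heterozygotes, the E1 beta subunit Pdhb, which fell, and none in mutants. Over all genes 1.57% and 3.35% passed with the fast. The calls of Pdk3, Dlat and Pdhb were each lost with some arrays left out, that of Pdhb with any heterozygous array.

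Values are log2 probe set values, so a difference of 1 is a 2-fold change, and levels of different probe sets are not compared. The deposited values ranged from 3.80 to 14.33, array medians lay between 7.33 and 7.40, and arrays of 1 group correlated at 0.985 to 0.996 over probe sets. The targeted gene Mmut read 9.66 to 10.10 in the 8 heterozygous livers and 7.85 to 8.33 in the 8 mutant livers, which is as the labels have it. Hepatocyte markers were high in every liver, with a log2 summed level of 15.55 to 15.98, and skeletal muscle markers stayed at 10.34 to 10.50 with 0 of 9 past the test in any of the 4 main comparisons. Endothelial markers were higher in mutants, 8 of 11 unfasted and 9 of 11 fasted, with summed levels of 12.99 to 13.36 and 13.02 to 13.25 in unfasted and fasted heterozygotes and 13.46 to 13.72 and 13.52 to 13.72 in unfasted and fasted mutants. Without unfasted heterozygote 3, or in a fit of only the arrays compared, the unfasted count was 3 of 11. Macrophage markers were higher in fasted mutants than in fasted heterozygotes, 11 of 13, while 0 of 13 passed unfasted, and summed to 12.59 to 13.14 and 12.58 to 13.13 in unfasted and fasted heterozygotes and 12.81 to 13.55 and 13.39 to 13.78 in unfasted and fasted mutants. Stellate and fibroblast markers were higher in mutants in 7 of 11 cases unfasted and 2 of 11 fasted, with summed levels of 12.91 to 13.15 over heterozygotes and 13.12 to 13.53 over mutants. The 7 were 2 without unfasted heterozygote 3 and 3 without unfasted heterozygote 4, and the 2 were 0 without fasted mutant 1 or fasted heterozygote 1. Of 2 erythroid markers 1 was lower in mutants in each state, with summed levels of 10.41 to 11.07 and 8.89 to 10.34 in the genotypes. Adipocyte markers summed to 10.98 to 11.36 in fasted mutants and 9.51 to 10.65 in the other 12 livers. None of the 6 passed in the 4 main comparisons, and 1 was higher in fasted mutants than in unfasted heterozygotes. Between genotypes, 7.94% of all genes passed unfasted and 13.6% fasted. Unfasted mutant 1 stood apart in pancreatic acinar genes, with Cpa1 at 12.29 against 6.84 to 7.22 in the other 15 livers. In bulk tissue, fewer cells of a type and less RNA per cell cannot be told apart.

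Promoter sequence was read for the members that had a window. In the RefSeq promoter table (GRCm38.p6), 9 of the 10 members matched with 11 windows, and Pdp1 had none. The 250 bases before the gene start are shown for Pdk4, whose values spread most over the groups, for Pdk2, its paralog with nearly equal group means, and for Pdhb, the member that fell with fasting. All 3 lie on the minus strand and are printed 5′ to 3′ along the gene, Pdk4 from chr6:5496279-5496528, Pdk2 (the first of its 2 windows) from chr11:95041372-95041621 and Pdhb from chr14:8172993-8173242. Capitals mark the matches to the motifs searched.
Pdk4: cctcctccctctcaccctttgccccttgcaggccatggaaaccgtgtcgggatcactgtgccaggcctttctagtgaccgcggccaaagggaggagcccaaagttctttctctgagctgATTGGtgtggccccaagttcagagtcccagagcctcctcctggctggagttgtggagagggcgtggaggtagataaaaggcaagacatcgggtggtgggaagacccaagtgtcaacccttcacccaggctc
Pdk2: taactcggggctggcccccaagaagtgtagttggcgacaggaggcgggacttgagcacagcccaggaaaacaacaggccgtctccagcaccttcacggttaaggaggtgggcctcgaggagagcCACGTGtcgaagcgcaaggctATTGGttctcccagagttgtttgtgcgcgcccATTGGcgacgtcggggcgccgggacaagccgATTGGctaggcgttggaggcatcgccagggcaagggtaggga
Pdhb: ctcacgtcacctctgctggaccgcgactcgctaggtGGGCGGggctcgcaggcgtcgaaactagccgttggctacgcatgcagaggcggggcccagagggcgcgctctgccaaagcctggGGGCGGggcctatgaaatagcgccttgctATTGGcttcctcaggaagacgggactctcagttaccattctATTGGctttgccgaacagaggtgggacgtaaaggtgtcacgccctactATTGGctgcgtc
The motifs were a FOXO core (TGTTTAC), a nuclear receptor half-site (AGGTCA), an E-box (CACGTG), a GC box (GGGCGG) and a CCAAT box, searched on both strands. A CCAAT box on the opposite strand reads ATTGG here, as all those in capitals do. None of these strings contains another. Pdk4 held 1 CCAAT box, which begins 131 bases before the start. Pdk2 held 3 CCAAT boxes, 105, 73 and 42 bases before it, and an E-box at 126, whereas Pdhb held 3 CCAAT boxes, at 101, 60 and 12, and 2 GC boxes, at 214 and 130. Among the 11 windows of members, 5 held a CCAAT box, 6 a GC box and 2 an E-box, while 33.8%, 32.7% and 6.02% of all 32851 windows of this length did. No window of a member held the FOXO core or the half-site, which 3.17% and 14% of all windows did. These are letter matches in 250 bases and say nothing of binding or of elements elsewhere. The 3 windows shown had a GC content of 58.8%, 62.4% and 61.6%, above the median of 52.4% over all windows.

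The kinases come first. Pdk4 (probe set 10543017) read 8.65, 10.22, 9.38 and 8.56 in the 4 unfasted heterozygotes and 10.19, 10.08, 10.53 and 10.09 in the fasted ones. In mutants it read 12.03, 11.77, 11.15 and 10.54 unfasted and 12.57, 12.35, 11.37 and 11.23 fasted. Every mutant liver lay above every heterozygous liver of either feeding state, the lowest unfasted mutant only just above the highest fasted heterozygote. Unfasted heterozygote 2 read as high as the fasted heterozygotes. The group means were 9.20 ± 0.77 and 10.22 ± 0.21 (SD, n = 4) in unfasted and fasted heterozygotes, and 11.37 ± 0.67 and 11.88 ± 0.68 in unfasted and fasted mutants. Fasted heterozygotes were thus the tightest group, and the other 3 each spanned more than 1 log2 unit.

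Pdk4 rose with genotype in both states. The difference was 2.17 ± 0.39 (SE) unfasted, with an adjusted p of 0.0036 by limma with Benjamini-Hochberg adjustment over all genes, and 4 of 4 mutants lay above all 4 heterozygotes. In the fasted state it was 1.65 ± 0.39 (limma adjusted p = 0.011), again with no overlap. Both calls held whichever array was left out, with limma adjusted p up to 0.016 unfasted and 0.040 fasted. Without unfasted mutant 1, the liver with acinar RNA, the unfasted difference was 1.95. The difference between those 2 genotype effects, the interaction, was -0.52 ± 0.55 (95% interval -1.67 to 0.64, limma adjusted p = 0.71), an interval that holds both no difference and one of over 1 log2 unit. The part of the endothelial, macrophage, stellate and erythroid marker levels in these differences was not tested.

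The response of Pdk4 to the fast was less certain. Heterozygotes read 1.02 ± 0.39 higher fasted than unfasted (95% interval 0.20 to 1.84), a difference that did not pass over all genes (limma adjusted p = 0.25). Only 1 of the 4 fasted heterozygotes lay above all 4 unfasted ones, since unfasted heterozygote 2 read 10.22. Fasted mutants read 0.50 ± 0.39 above unfasted mutants (interval -0.31 to 1.32, limma adjusted p = 0.45), and these groups overlapped widely. In order of their means the groups ran unfasted heterozygote, fasted heterozygote, unfasted mutant, fasted mutant, and no neighbours in that order differed past the test. The middle step, unfasted mutants over fasted heterozygotes, was 1.15 ± 0.39 (interval 0.33 to 1.97, limma adjusted p = 0.068) with no overlap by the smallest of margins. Without unfasted mutant 4 or unfasted heterozygote 2 this step passed (lowest limma adjusted p 0.027), and over all left-out arrays it ran from 0.93 to 1.43. From end to end, fasted mutants against unfasted heterozygotes, Pdk4 rose by 2.68 ± 0.39 (limma adjusted p = 0.00027), which is 6.39-fold. That span of group means ranked 30 among all 19938 genes, whose median span was 0.16.

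**Figure D1:**
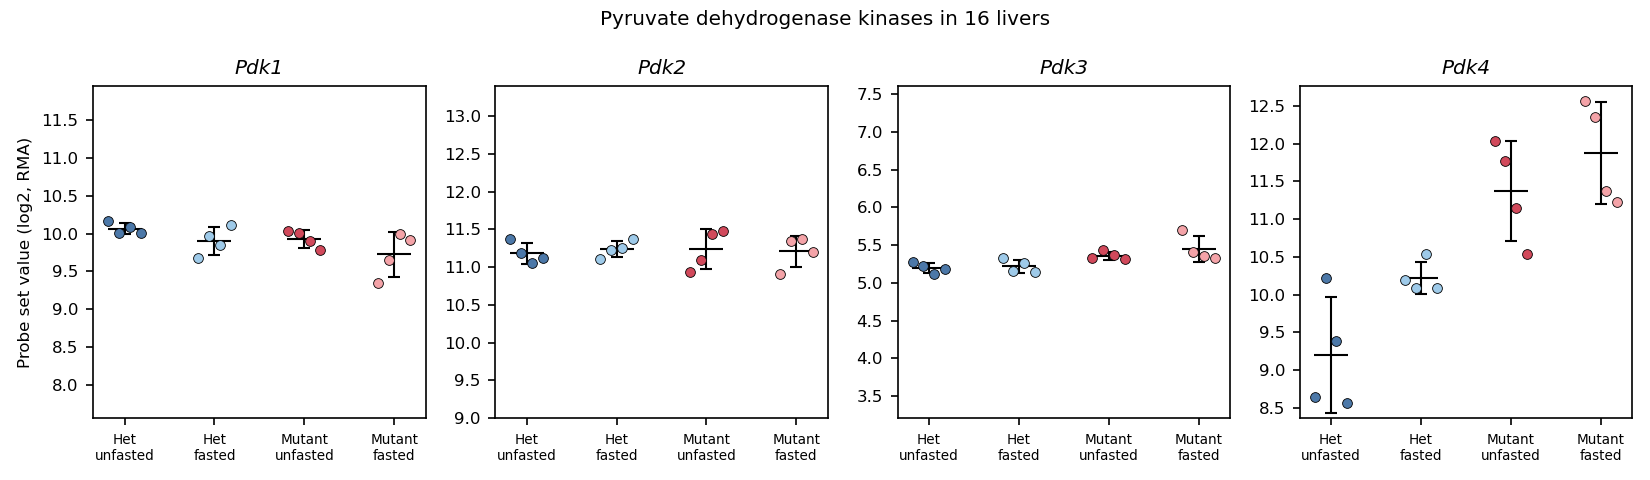
Log2 values of the 4 pyruvate dehydrogenase kinases (vertical axis, RMA scale, each panel covering the same number of log2 units but starting at its own level) in the 4 groups of 4 livers, with the mean and SD of each group as bars. Pdk4 climbs from a mean of 9.20 in unfasted heterozygotes to 11.88 in fasted mutants, while the group means of Pdk1, Pdk2 and Pdk3 stay within 0.34, 0.06 and 0.25 of each other.

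Pdk2 (probe set 10390103) is the kinase isoform found most widely across tissues and abundant in liver. It read 11.38, 11.19, 11.05 and 11.13 in unfasted and 11.11, 11.22, 11.26 and 11.38 in fasted heterozygotes. Mutants read 10.94, 11.09, 11.44 and 11.48 unfasted and 10.91, 11.35, 11.37 and 11.20 fasted. All 4 groups overlapped, and their means spanned 0.06. The genotype difference was 0.05 ± 0.12 unfasted (95% interval -0.21 to 0.32) and -0.03 ± 0.12 fasted (-0.30 to 0.23), so a change of the size seen in Pdk4 lies far outside these intervals while one of 0.2 does not. Fasting gave 0.06 ± 0.12 (-0.21 to 0.32) in heterozygotes and -0.03 ± 0.12 (-0.29 to 0.23) in mutants.

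Pdk1 (probe set 10472846), a kinase known as a target of the hypoxia factor HIF-1, read 10.16, 10.01, 10.09 and 10.003 in unfasted and 9.67, 9.97, 9.85 and 10.12 in fasted heterozygotes. Mutants read 10.03, 10.01, 9.90 and 9.78 unfasted and 9.34, 9.65, 9.99 and 9.91 fasted. Unfasted heterozygotes held the highest mean and fasted mutants the lowest, and all 4 fasted mutants lay below all 4 unfasted heterozygotes by a narrow gap. That difference was -0.34 ± 0.12 (interval -0.60 to -0.08) and did not pass (limma adjusted p = 0.067). Without fasted mutant 3 or fasted mutant 4 it passed (lowest limma adjusted p 0.028), and over all left-out arrays it ran from -0.43 to -0.21. The 4 comparisons of 1 factor at a time gave -0.14 ± 0.12 and -0.18 ± 0.12 for genotype, unfasted and fasted, and -0.16 ± 0.12 and -0.20 ± 0.12 for fasting in heterozygotes and mutants.

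Pdk3 (probe set 10605711) was dim, at the 9th percentile of genes by mean value, where a change can be understated. It read 5.28, 5.22, 5.11 and 5.18 in unfasted and 5.32, 5.15, 5.26 and 5.15 in fasted heterozygotes, against 5.32, 5.43, 5.37 and 5.32 in unfasted and 5.70, 5.41, 5.35 and 5.33 in fasted mutants. Mutants lay above heterozygotes within each feeding state without overlap, and fasted mutant 1 was the highest of all. Pdk3 rose by 0.22 ± 0.07 in fasted mutants over fasted heterozygotes (limma adjusted p = 0.039), and by 0.25 ± 0.07 over unfasted heterozygotes (limma adjusted p = 0.019). Unfasted, the difference was 0.16 ± 0.07 (limma adjusted p = 0.17), and without fasted mutant 1, which enters through the shared spread, it passed at 0.039. The fasted call was lost without fasted mutant 1 or 2 or without fasted heterozygote 2, 3 or 4, with differences of 0.14 to 0.26 and a limma adjusted p of up to 0.11 over all left-out arrays, and it was lost in a fit of only the arrays compared. The call against unfasted heterozygotes was lost without unfasted heterozygote 3 or 4 (limma adjusted p up to 0.063).

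Of the phosphatase subunits, Pdp1 (probe set 10511580), the calcium-stimulated catalytic subunit, was the steadier. It read 8.03, 8.07, 7.97 and 8.01 in unfasted and 8.14, 8.07, 8.12 and 8.03 in fasted heterozygotes. In mutants it read 8.66, 8.61, 8.48 and 8.52 unfasted and 8.78, 8.59, 8.33 and 8.46 fasted. The 8 mutant livers all lay above the 8 heterozygous livers, and within a genotype the feeding states overlapped. Pdp1 rose by 0.55 ± 0.08 in unfasted mutants (limma adjusted p = 0.00075) and by 0.45 ± 0.08 in fasted mutants (limma adjusted p = 0.0020), and neither call was lost when any array was left out. Fasting gave 0.07 ± 0.08 (interval -0.09 to 0.23) in heterozygotes and -0.03 ± 0.08 (-0.19 to 0.13) in mutants. The endothelial marker level split the genotypes in the same way, from 12.99 to 13.36 in heterozygotes and from 13.46 to 13.72 in mutants, and its part in the Pdp1 difference was not tested.

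Pdp2 (probe set 10574488), the phosphatase subunit known for its response to insulin, read 8.94, 8.83, 8.78 and 8.64 in unfasted and 9.04, 9.01, 9.02 and 8.80 in fasted heterozygotes. In mutants it read 8.98, 8.73, 8.43 and 8.48 unfasted and 8.59, 8.50, 8.66 and 8.79 fasted. Fasted mutants lay just below fasted heterozygotes with no overlap, and the unfasted groups overlapped, with unfasted mutant 1 the highest of its group. The fasted genotype difference was -0.33 ± 0.11 (interval -0.56 to -0.11) and narrowly missed the threshold (limma adjusted p = 0.051). It passed without unfasted mutant 1, 3 or 4, without fasted mutant 4 or without fasted heterozygote 4, with differences of -0.39 to -0.29 and a limma adjusted p of 0.020 to 0.15 over all left-out arrays, and under 8 of the 9 other settings tried (limma adjusted p from 0.014). Unfasted, the difference was -0.14 ± 0.11 (-0.37 to 0.09). It was -0.24 (limma adjusted p = 0.12) without unfasted mutant 1, the liver with acinar RNA. Fasting gave 0.17 ± 0.11 (-0.06 to 0.40) in heterozygotes and -0.02 ± 0.11 (-0.25 to 0.21) in mutants.

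Among the subunits, Pdhb (probe set 10417538) encodes E1 beta, the partner of the phosphorylated chain. It read 9.88, 9.65, 9.70 and 9.72 in unfasted and 9.13, 9.19, 9.35 and 9.21 in fasted heterozygotes. Unfasted mutants scattered, at 9.92, 9.61, 9.21 and 9.52, and fasted mutants read 9.29, 9.70, 9.53 and 9.58. The fasted heterozygotes lay below all unfasted ones with a clear gap, whereas both mutant groups overlapped both heterozygous groups. In heterozygotes Pdhb fell by 0.52 on the log2 scale with the fast (SE 0.12, limma adjusted p = 0.042), which is 1.43-fold lower. The size hardly moved when an array was left out (-0.56 to -0.47), yet the call was lost without any 1 of the 8 heterozygous arrays, without unfasted mutant 2 and without fasted mutants 3 or 4, with a limma adjusted p of up to 0.12. It was lost with the replicate block or with median-centred arrays too. In mutants the fasting difference was -0.04 ± 0.12 (interval -0.30 to 0.22). The interaction was 0.48 ± 0.17 (0.12 to 0.84) with an unadjusted limma p of 0.013 and an adjusted p of 0.39, so a difference between the genotypes in this response was not established. Between genotypes Pdhb differed by -0.17 ± 0.12 (-0.43 to 0.08) unfasted and 0.31 ± 0.12 (0.05 to 0.56) fasted. Neither passed (limma adjusted p = 0.46 and 0.10). Unfasted mutant 1, the highest of its group at 9.92, is the liver with acinar RNA. Without it these differences were -0.29 and 0.31, and the fasted one passed (limma adjusted p = 0.10 and 0.047).

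Pdha1 (probe set 10607587) encodes E1 alpha, the chain that the kinases phosphorylate, from the X chromosome. It read 10.90, 10.97, 11.01 and 10.73 in unfasted and 10.86, 10.90, 10.83 and 11.03 in fasted heterozygotes, and 11.26, 11.12, 10.86 and 10.61 in unfasted and 10.94, 11.13, 11.04 and 11.18 in fasted mutants. Unfasted mutants held both the highest and the lowest liver, and all groups overlapped. Genotype differences were 0.06 ± 0.11 (interval -0.18 to 0.30) unfasted and 0.17 ± 0.11 (-0.07 to 0.41) fasted. In heterozygotes the fasting difference was 0.00 ± 0.11 (-0.24 to 0.24).

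Dlat (probe set 10593367), the E2 core that carries lipoate and passes on the acetyl group, read 10.25, 10.18, 10.10 and 10.08 in unfasted and 10.01, 10.03, 9.93 and 9.95 in fasted heterozygotes. Mutants read 10.28, 10.16, 10.36 and 10.31 unfasted and 10.20, 10.42, 10.22 and 10.04 fasted. Fasted heterozygotes formed the lowest group and overlapped with no other group. Dlat rose by 0.24 ± 0.07 in fasted mutants over fasted heterozygotes (limma adjusted p = 0.044) and by 0.30 ± 0.07 in unfasted mutants over fasted heterozygotes (limma adjusted p = 0.018). The first call was lost without unfasted heterozygote 2, 3 or 4, fasted mutant 1, 2 or 3 or any fasted heterozygote, with differences of 0.17 to 0.30 and a limma adjusted p of up to 0.14, and in a fit of only the arrays compared. The second was lost without unfasted mutant 3 or fasted heterozygote 3 or 4 (limma adjusted p up to 0.053). Fasted heterozygotes read -0.17 ± 0.07 against unfasted ones (interval -0.33 to -0.01, limma adjusted p = 0.35), and the unfasted genotype difference was 0.13 ± 0.07 (-0.03 to 0.28).

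Pdhx (probe set 10485429), the E3-binding protein that anchors the last enzyme of the complex, read 8.97, 8.67, 8.63 and 8.85 in unfasted and 8.65, 8.67, 8.60 and 8.72 in fasted heterozygotes. In mutants it read 8.69, 8.58, 8.15 and 8.50 unfasted and 8.52, 8.84, 8.72 and 8.66 fasted. Unfasted mutants tended low, with 3 of 4 below all unfasted heterozygotes, and the other groups overlapped. The unfasted genotype difference was -0.30 ± 0.10 (interval -0.52 to -0.08, limma adjusted p = 0.090). Without unfasted mutant 1, the liver with acinar RNA, it was -0.37 and passed (limma adjusted p = 0.042). The fasted difference was 0.03 ± 0.10 (-0.19 to 0.25), and the interaction was 0.33 ± 0.15 with an unadjusted limma p of 0.041 and an adjusted p of 0.45.

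**Figure D2:**
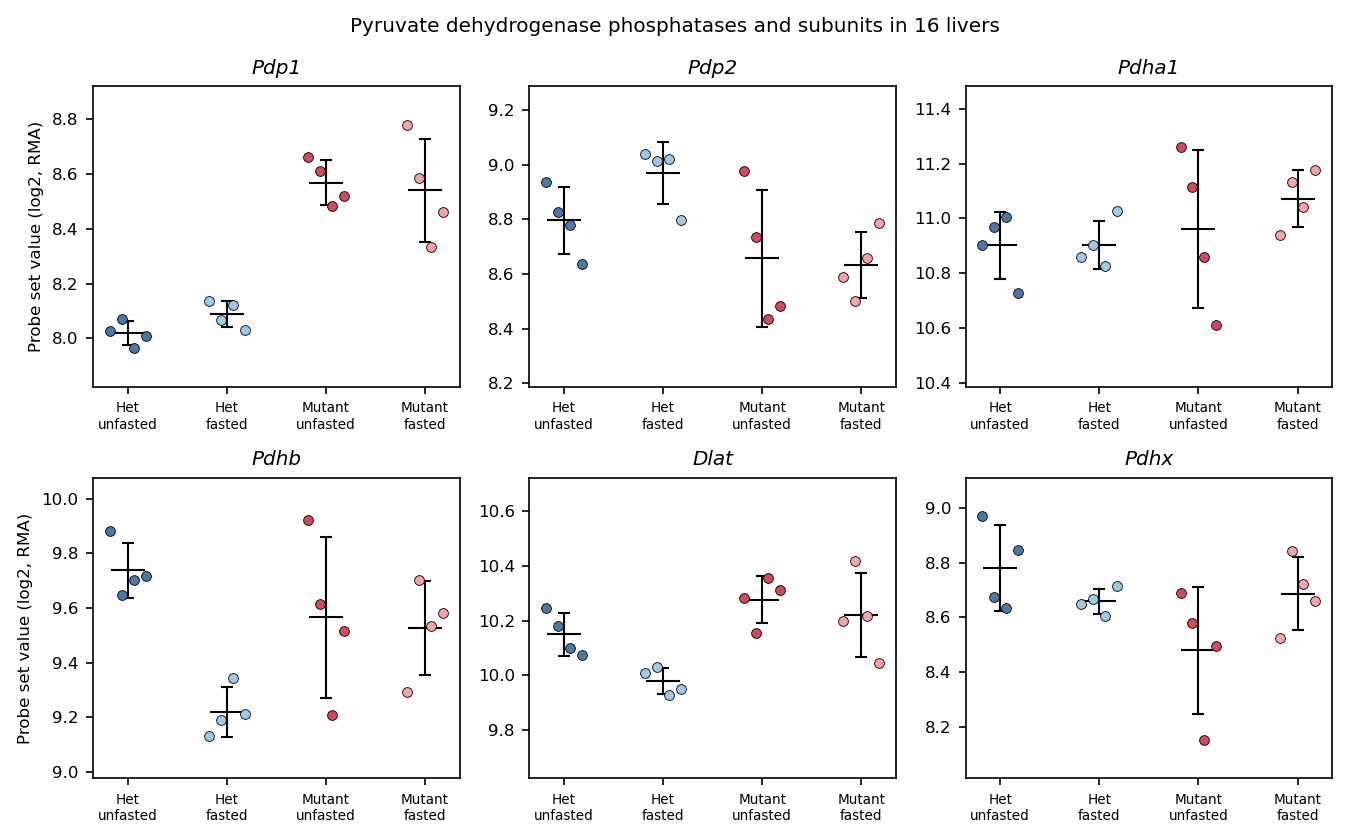
Log2 values (vertical axis, RMA scale, each panel covering the same number of log2 units but starting at its own level) of the 2 phosphatase subunits and the 4 complex subunits in the 4 groups of 4 livers, with mean and SD bars. Pdp1 separates the genotypes, with heterozygotes at 7.97 to 8.14 and mutants at 8.33 to 8.78, and Pdhb is lowest in fasted heterozygotes, at 9.13 to 9.35.

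Set side by side, the comparisons gave these counts. Between unfasted mutants and heterozygotes, Pdk4 and Pdp1 rose and 8 of 10 members did not pass, where 7.94% of all genes passed in either direction. In 3 of 10 members, all higher, the groups did not overlap (12% of all genes), with Pdk3 as the third. The members' median difference was 0.06 and that of all genes 0.01.

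Between fasted mutants and heterozygotes, Pdk4, Pdp1, Pdk3 and Dlat rose and no member fell, against 13.6% of all genes called. Groups did not overlap in 5 of 10 members (23.7% of all genes), 4 higher and Pdp2 lower. The median difference was 0.20 over members and -0.02 over all genes. The count was 2 without fasted mutant 1, fasted mutant 2, fasted heterozygote 2 or fasted heterozygote 3, and Pdk4 and Pdp1 passed in every one of these fits. Pdp2, at a limma adjusted p of 0.051, passed as lower under 8 of the 9 other settings, where the count of members ran from 4 to 6.

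The fast in heterozygotes lowered Pdhb alone among the 10, where 1.57% of all genes passed. Pdhb and Dlat were the 2 members whose groups did not overlap (10.5% of all genes), both lower, and the median difference was 0.01 over members and 0.01 over all genes. The fast in mutants passed in 0 of 10 members, with 0 at an unadjusted limma p under 0.05, where 3.35% of all genes were called and 22.2% had such an unadjusted p. No member's groups were apart in that comparison (10% of all genes). The interaction passed in 0 of 10 members and in 0.01% of all genes, and 2 members, Pdhb and Pdhx, had an unadjusted limma p under 0.05 (11% of all genes). These comparisons share groups, so their counts are not independent.

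Across both factors, unfasted mutants exceeded fasted heterozygotes in Pdp1 and Dlat (10.9% of all genes called), and fasted mutants exceeded unfasted heterozygotes in Pdk4, Pdp1 and Pdk3 (18.3% of all genes). No member fell in either. Groups were apart in 3 of 10 members in the first of these (15.7% of all genes), Pdk4, Pdp1 and Dlat, and in 4 of 10 in the second (23.9% of all genes), the 3 that rose and Pdk1, which was lower.

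**Figure D3:**
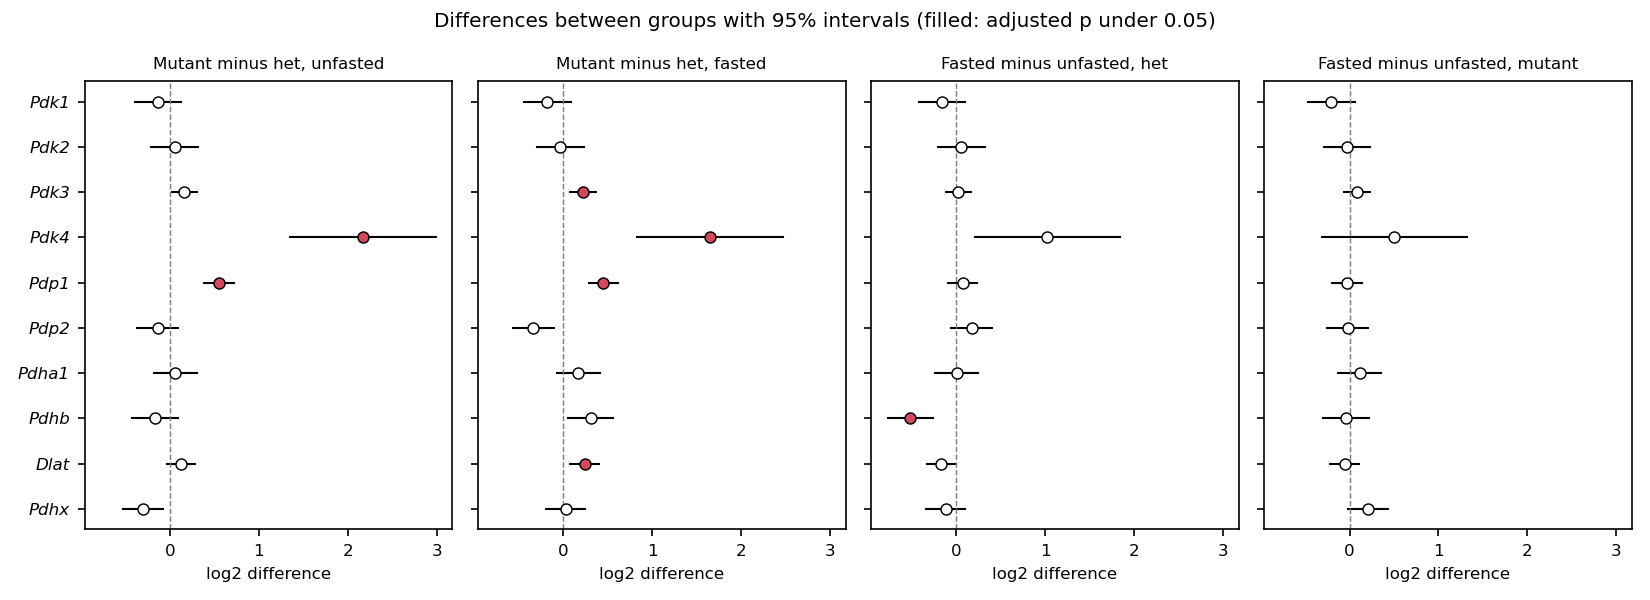
Log2 differences (horizontal axis) with 95% intervals for the 10 members in the 4 comparisons of 1 factor at a time, from the limma fit with 4 livers a group; filled points have an adjusted p under 0.05. Pdk4 lies furthest to the right in the genotype panels, at 2.17 unfasted and 1.65 fasted, and Pdhb is the only filled point in the fasting panels, at -0.52 in heterozygotes.

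Among direct partners of the complex, Dld, the E3 enzyme that the complex shares with its sister dehydrogenases, did not pass in any of the 4 comparisons, with genotype differences of -0.04 ± 0.12 unfasted and 0.16 ± 0.12 fasted. Mpc1, a subunit of the mitochondrial pyruvate carrier, read 11.68 to 11.91 in unfasted heterozygotes and 11.94 to 12.20 in fasted mutants, and its fasted genotype difference of 0.26 ± 0.09 did not pass (limma adjusted p = 0.072). Pdpr, the regulatory subunit of the phosphatase, read 9.47, 9.32, 9.29 and 9.22 in unfasted and 9.59, 9.63, 9.72 and 9.60 in fasted mutants. Those mutant groups did not overlap. Pdpr rose with the fast in mutants by 0.31 ± 0.07 (limma adjusted p = 0.027), a call lost without unfasted mutant 2, 3 or 4 or fasted mutant 2 or 3 (limma adjusted p up to 0.075). In heterozygotes its fasting difference was 0.25 ± 0.07 (limma adjusted p = 0.10).

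The sister 2-oxoacid dehydrogenases, which act on branched-chain amino acids and in the citric acid cycle, moved little with genotype. None of 9 measured genes passed unfasted, where 7.94% of all genes did, and 1 fell fasted, where 13.6% of all genes passed. That gene was Dhtkd1, a dehydrogenase of lysine breakdown, by 0.76 on the log2 scale (SE 0.20, limma adjusted p = 0.021), lost without fasted mutant 1 or 2 or fasted heterozygote 3 or 4 (limma adjusted p up to 0.075). Fasting raised 2 of 9 in mutants and none in heterozygotes (3.35% and 1.57% of all genes passed), and the 2 were 0 in a fit of only the arrays compared. These were Bckdk, the kinase that switches off the branched-chain enzyme as the Pdk enzymes switch off pyruvate dehydrogenase, by 0.39 ± 0.09 (limma adjusted p = 0.036, lost without unfasted mutant 2 or 4 or any fasted mutant, up to 0.096), and Ppm1k, the phosphatase that opposes it, by 0.56 ± 0.11 (limma adjusted p = 0.016, up to 0.045). Ppm1k read 10.49 to 10.76 in unfasted and 10.97 to 11.46 in fasted mutants, without overlap. The list's medians were 0.05 and 0.03 for genotype, unfasted and fasted, and 0.13 and -0.01 for fasting, in heterozygotes and mutants.

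The list of genes that supply lipoate and thiamine, the cofactors of the complex, also held the partners Dld and Pdpr. Of its 15 measured genes, 0 were called for genotype in either state or for fasting in heterozygotes. Over all genes 7.94%, 13.6% and 1.57% passed there. In mutants the fast raised 2 of 15, where 3.35% of all genes passed. These were the partner Pdpr, given above, and Isca2, an iron-sulfur assembly factor needed for lipoate synthesis. Isca2 rose by 0.27 ± 0.06 (limma adjusted p = 0.026). Isca2 was lost without unfasted mutant 4 or fasted mutant 2 or 4 (limma adjusted p up to 0.071), and the list's count ran from 0 without unfasted mutant 4 or fasted mutant 2 to 5 without fasted mutant 1. The list's median in that comparison was 0.16, against -0.01 over all genes.

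Genes that make or use pyruvate moved in both directions. Among 16 measured, 3 rose and 1 fell with genotype unfasted, and 4 rose and 1 fell fasted, with list medians of 0.07 and 0.12, where 7.94% and 13.6% of all genes passed. The 4 that rose fasted were 2 without fasted mutant 1, fasted mutant 2 or fasted heterozygote 3. Slc16a7, a monocarboxylate transporter of high affinity for pyruvate, read 10.82 to 11.44 in unfasted heterozygotes and 11.93 to 12.14 in unfasted mutants, and rose by 0.86 ± 0.11 (limma adjusted p = 0.00040). Fasted, it rose by 0.42 ± 0.11 (limma adjusted p = 0.020), lost without fasted mutant 1 or 2 or fasted heterozygote 3 (up to 0.063). Ldhd, the D-lactate dehydrogenase, fell by 0.54 on the log2 scale unfasted (limma adjusted p = 0.019) and by 0.88 fasted (limma adjusted p = 0.00075). The unfasted call of Ldhd was lost without unfasted mutant 3 or unfasted heterozygote 3 (limma adjusted p up to 0.066). Pck2, the mitochondrial phosphoenolpyruvate carboxykinase, rose by 0.50 ± 0.09 unfasted (limma adjusted p = 0.0051). Gpt2, which makes pyruvate from alanine in mitochondria, rose unfasted by 0.46 ± 0.11 (limma adjusted p = 0.020), and Slc16a1 and Me2 rose fasted by 0.54 ± 0.12 and 0.45 ± 0.08 (limma adjusted p = 0.0073 and 0.0031). The Gpt2 call was lost without unfasted mutant 2 or unfasted heterozygote 2 or 4 (limma adjusted p up to 0.072).

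With the fast in heterozygotes, 2 of these 16 genes rose and 2 fell, where 1.57% of all genes passed. The 2 that fell were 0 without unfasted heterozygote 3, and the 2 that rose were 5 with array weights. Pklr, the liver pyruvate kinase that ends glycolysis, fell by 1.06 on the log2 scale (SE 0.21, limma adjusted p = 0.018, lost without unfasted heterozygote 3 at 0.057), and Me1, the cytosolic malic enzyme, fell by 0.66 (SE 0.14, limma adjusted p = 0.027, up to 0.093). Pck1, the cytosolic carboxykinase of glucose synthesis, rose by 0.60 ± 0.10 (limma adjusted p = 0.0077), and Gpt2 by 0.48 ± 0.11 (limma adjusted p = 0.042, up to 0.14). The Gpt2 call was lost without unfasted heterozygote 2, 3 or 4, any fasted heterozygote or fasted mutant 2, 3 or 4. The Me1 call was lost without unfasted heterozygote 2 or 3 or fasted heterozygote 1 or 3. In mutants 3 rose and none fell, where 3.35% of all genes passed, and the 3 were 1 without unfasted mutant 2, without fasted mutant 2 or in a fit of only the arrays compared. Pck1 rose by 0.55 ± 0.10 (limma adjusted p = 0.011), Slc16a1 by 0.51 ± 0.12 (limma adjusted p = 0.026, lost without unfasted mutant 2 or fasted mutant 2 or 3) and Ldha, a lactate dehydrogenase chain, by 0.36 ± 0.09 (limma adjusted p = 0.036, up to 0.089). The Ldha call was lost without unfasted mutant 2, 3 or 4, fasted mutant 1, 2 or 4 or fasted heterozygote 2. Pklr read -0.71 ± 0.21 there (limma adjusted p = 0.071).

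PPAR-alpha is a nuclear receptor that fatty acids activate in the fasted liver, and Pdk4 is among its known targets. Of 13 other known targets measured, 7 rose with genotype unfasted and 4 fasted, 6 rose with the fast in heterozygotes and 5 in mutants, and none fell in any of these, where 7.94%, 13.6%, 1.57% and 3.35% of all genes passed in either direction. In fits of only the arrays compared the first, second and last of these counts were 2, 7 and 0, and over the other settings tried the count for the fast in heterozygotes ran from 5 to 9. The list medians were 0.49, 0.34, 0.52 and 0.41, against 0.01, -0.02, 0.01 and -0.01 over all genes. The count of 7 was 3 without unfasted heterozygote 3 and 4 without unfasted mutant 2 or 3, and that of 4 was 2 without fasted mutant 1 or fasted heterozygote 1. The count of 5 was 1 without fasted mutant 2, 2 without unfasted mutant 2 or 4 and 3 without fasted mutant 3. With the fast in heterozygotes it ran from 4 without unfasted heterozygote 4 to 8 without unfasted heterozygote 2.

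Members of that list did not share 1 pattern. Acot2, a mitochondrial acyl-CoA thioesterase, rose with genotype by 1.93 ± 0.30 unfasted and 1.87 ± 0.30 fasted (limma adjusted p = 0.0016 and 0.0014), while its fasting differences of 0.46 ± 0.30 and 0.40 ± 0.30, in heterozygotes and mutants, did not pass. Its values were 9.11 to 10.53 and 10.07 to 10.68 in unfasted and fasted heterozygotes and 11.33 to 12.35 and 11.58 to 12.59 in unfasted and fasted mutants. Angptl4, an inhibitor of lipoprotein lipase, rose with the fast in heterozygotes by 1.08 ± 0.18 (limma adjusted p = 0.0088), with a fasted genotype difference of -0.02 ± 0.18. Ehhadh, a peroxisomal enzyme of fatty acid oxidation, rose in all 4 comparisons, by 0.66 ± 0.15 and 0.57 ± 0.15 with genotype and by 0.79 ± 0.15 and 0.70 ± 0.15 with the fast (limma adjusted p = 0.013, 0.018, 0.013 and 0.019). The Ehhadh calls were lost without unfasted heterozygote 3 in the first comparison, fasted mutant 1 or fasted heterozygote 1 in the second and fasted mutant 2 in the last, each with a limma adjusted p of at most 0.055. Fgf21, a hormone of the fasted liver, rose unfasted by 1.65 ± 0.23 (limma adjusted p = 0.00072), from 7.96 to 8.15 in heterozygotes to 9.03 to 10.39 in mutants, and did not pass fasted at 0.62 ± 0.23 (limma adjusted p = 0.086). Cpt1a, the gate of mitochondrial fatty acid entry, rose with the fast by 0.52 ± 0.10 and 0.46 ± 0.10 (limma adjusted p = 0.015 and 0.023), lost without fasted heterozygote 3 in heterozygotes and without unfasted mutant 4 or fasted mutant 3 in mutants (limma adjusted p up to 0.054 and 0.059). Its genotype differences were 0.24 ± 0.10 and 0.18 ± 0.10. The other targets that passed were Acot1, Cyp4a10, Hadha, Hadhb and Slc25a20, with differences from 0.16 for Hadha between fasted genotypes to 1.17 for Acot1 between unfasted ones.

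Transcription regulators known to act on Pdk genes changed in few cases. Of 16 measured, 1 fell with genotype unfasted, 1 rose and 3 fell fasted, none passed with the fast in heterozygotes and 1 rose in mutants, where 7.94%, 13.6%, 1.57% and 3.35% of all genes passed. The 3 that fell fasted were 1 without fasted mutant 1 or 2 or fasted heterozygote 1, 2 or 4, and 1 in a fit of only the arrays compared. Ppara itself read 0.03 ± 0.12 and -0.12 ± 0.12 for genotype and 0.15 ± 0.12 and 0.00 ± 0.12 for fasting. Foxo1, a factor that insulin keeps out of the nucleus, read 0.22 ± 0.14 and -0.06 ± 0.14 for genotype. Ppargc1a, a coactivator of fasting genes, rose with the fast in mutants by 1.33 ± 0.26 (limma adjusted p = 0.015) and in fasted mutants over fasted heterozygotes by 0.98 ± 0.26 (limma adjusted p = 0.023), the latter lost without fasted mutant 1 or 2 or fasted heterozygote 1 or 4 (up to 0.073). It read 8.48 to 8.66 and 8.89 to 9.70 in unfasted and fasted heterozygotes, and 8.41 to 9.57 and 9.58 to 10.99 in unfasted and fasted mutants. Nr0b2, a repressor of nuclear receptors, fell by 1.40 on the log2 scale in fasted mutants (SE 0.31, limma adjusted p = 0.0088). Thrb, a thyroid hormone receptor, fell with genotype in both states, by 0.38 and 0.37 (limma adjusted p = 0.029 and 0.021). The unfasted call was lost without unfasted mutant 1, 3 or 4 or unfasted heterozygote 2, 3 or 4, and the fasted call without fasted mutant 1 or 2 or fasted heterozygote 1, 2 or 4 (limma adjusted p up to 0.079 and 0.073). Esrrg, an orphan nuclear receptor, fell by 0.32 fasted (limma adjusted p = 0.046, up to 0.15), lost without any fasted heterozygote, fasted mutant 1, 2 or 4, unfasted mutant 2 or 4 or unfasted heterozygote 1 or 4.

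A fit of only the arrays compared called fewer genes in mutants with the fast, 33 in place of 667. It lost those calls of Pdpr, Isca2, Bckdk, Ppm1k, Pck1, Ldha, Ppargc1a, Ehhadh and Cpt1a, the unfasted genotype calls of Gpt2 and Ehhadh and the fasted genotype calls of Thrb and Esrrg.

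The genes whose values ran closest to those of Pdk4 over the 16 livers were found by the root mean square distance between values centred on each gene's own mean. Pdk4 itself had a root mean square of 1.17 about its mean. Its 5 closest genes were Acot2 (0.48), Cyp39a1 (0.52), Gpat3 (0.54), Prrg4 (0.56) and Lyve1 (0.57). Each thus still missed Pdk4 by a root mean square of over 0.4 log2 units, a measure in which the largest misses weigh most. Cyp39a1 is an oxysterol hydroxylase of bile acid synthesis, Gpat3 an acyltransferase of triglyceride synthesis and Lyve1 a marker of sinusoidal endothelium. Pdp1, with a root mean square of 0.27, lay closest to Robo4 (0.099), a receptor of endothelial cells, then Arap2, Eif4ebp1, Fkbp1a and Hgf (0.10). Pdhb (0.24) lay closest to Nup155 (0.11), then Primpol and Tpp2 (0.13) and Apool and Dtymk (0.14). The points share the 4 groups, so these distances mostly describe which genes have like group means and spread.

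**Figure D4:**
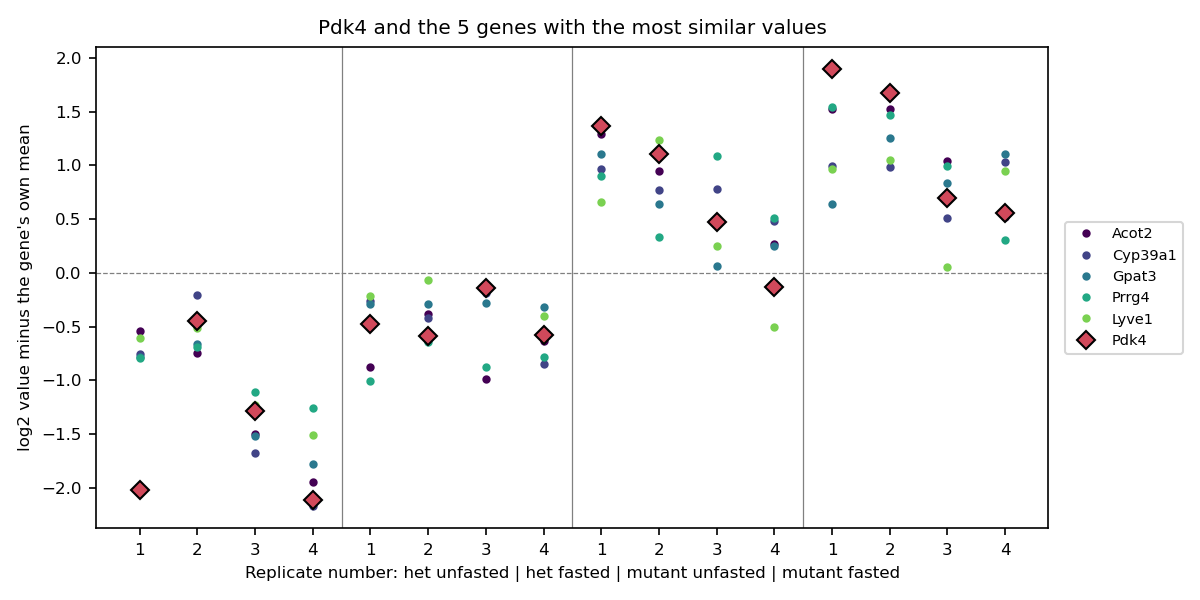
Log2 values minus each gene's own mean over 16 livers (vertical axis) for Pdk4 (diamonds) and the 5 genes closest to it (dots), by liver (horizontal axis, replicate 1 to 4 in each group, with different mice in each group). All 6 genes lie below their own mean in every heterozygous liver. Before its mean is taken off, Pdk4 runs from 8.56 in unfasted heterozygote 4 to 12.57 in fasted mutant 1.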

How the data were processed

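RNA from 16 livers, 4 in each of 4 groups, was measured on Affymetrix Mouse Gene 1.0 ST arrays, with 300 ng of total RNA labelled per array per the labels' protocols. The authors deposited 1 table of log2 values, made with RMA in Affymetrix Expression Console per the submitters' processing notes. RMA corrects background, matches array distributions by quantiles and sums up the probes of a probe set. The library file, genome build, filters and tool versions are not given in the sources used here, and the log2 scale was taken from the range of the values. The table has no detection calls, and the number of arrays limits the precision.

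Of 35556 probe sets, 21789 had 1 gene symbol in the platform's annotation, 1621 had several and 12146 were not listed. Only the first were used, the brightest where a gene had several, which left 19938 genes and no filter on dim ones. Group differences came from limma 3.58.1 under R 4.3.3, fitted to all 16 arrays, with 1 mean per group, trended variance moderation, two-sided tests and Benjamini-Hochberg adjustment over all genes for each of 7 contrasts; a gene passed at an adjusted p under 0.05. Nothing in the labels gives extraction or scan batches. The p-values rest on the spread between mice within groups, pooled over the 4 groups and moderated across genes.

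The members and lists were chosen with earlier results of these data known, so no p-value is given for a list, and counts of members stand beside the share of all genes called. Text names all members, direct partners, up to 4 called genes of each list and contrast with the largest change, and the 5 closest genes of Pdk4 and of members whose group means span over 0.5. List genes without a probe set of their own, such as Mpc2, were not analysed here. The fit was tested on simulated data for all 19938 genes with 200 genes changed, 100 by 0.5 log2 units and 100 by 1. Of those changed by 0.5 it called 81% unfasted and 89% fasted for genotype, 77% and 85% for fasting in heterozygotes and mutants, and 58% for the interaction. In the same order, it also called 21, 11, 4, 16 and 6 genes that had not been changed. The simulated noise was normal and independent, with 1 spread per gene in all groups. In the data the median spread (SD) over genes was 0.107 in unfasted mutants and 0.072 in fasted heterozygotes, so these rates hold for the simulated setting only. Alternatives were the replicate number as a block, fits of only the arrays compared, weights per array, centring each array on its median, quantile normalization of the genes used, robust moderation or no trend, only genes above median brightness, the mean over probe sets, and leaving out each array.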

Additional observations from a re-analysis of the deposited data

Results flagged for a closer look

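Pdp2 in fasted heterozygote 4 stood apart from its group, at 8.80 where the nearest of the other 3 fasted heterozygotes read 9.01. Its gap to that liver was 0.888 of the range of the 4 values, above Dixon's 95% critical value for 4 samples. Of 40 sets of 4 values looked at, 1 passed, and chance gives about 1 in 20, or 2.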

How the results depend on the processing

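Pdk4 kept its direction and its side of the threshold in the 7 contrasts under the other settings run, 9 for each contrast but 8 for the interaction, which has no fit of only the arrays compared, and 16 left-out arrays, except for unfasted mutants over fasted heterozygotes. That difference passed at 1.15 with the replicate block, with only the arrays compared and with genes above median brightness, at 1.30 with array weights, and ran from 0.93 to 1.43 with arrays left out. The number of members called with the fast in heterozygotes was 0 with the replicate block or median-centred arrays, and for unfasted mutants over fasted heterozygotes it was 4 with array weights. With arrays left out the counts were 2 to 3 and 2 to 6 for genotype unfasted and fasted, 0 to 1 and 0 for fasting in heterozygotes and mutants, 0 for the interaction, 1 to 3 for unfasted mutants over fasted heterozygotes and 2 to 4 for fasted mutants over unfasted heterozygotes. The fasted genotype call of Pdk3 was lost with only the arrays compared or no variance trend, and that of Dlat with the replicate block, only the arrays compared, median-centred arrays or second quantile normalization, whereas Pdp2 passed there under 8 of 9 settings. The cause was not tested. Deviations of same-numbered livers correlated at -0.12 to 0.25, and those of replicate number 4 at 0.0085 to 0.25. Differently numbered livers were not compared, so these values cannot show whether a number marks shared handling. The block is given only as an alternative.

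Differences that changed sign were all near 0 and none had passed. With median-centred arrays Pdha1 was -0.0092 for the fast in heterozygotes, Pdk1 -0.0070 for unfasted mutants over fasted heterozygotes and Pdk2 -0.013 for fasted mutants over unfasted heterozygotes. With second quantile normalization Pdhx was -0.059 for genotype fasted and Pdk2 0.012 for unfasted mutants over fasted heterozygotes, and with array weights Pdk2 was 0.041 for the fast in mutants. With arrays left out, Pdk2 ran from -0.028 to 0.15 and Pdha1 from -0.040 to 0.18 for genotype unfasted, Pdk2 from -0.087 to 0.064 and Pdhx from -0.024 to 0.082 for genotype fasted, and Pdk3 from -0.010 to 0.050 and Pdha1 from -0.056 to 0.037 for the fast in heterozygotes. For the fast in mutants Pdk2 ran from -0.13 to 0.068, Pdp1 from -0.11 to 0.040, Pdp2 from -0.10 to 0.083, Pdha1 from -0.0054 to 0.21, Pdhb from -0.16 to 0.081 and Dlat from -0.12 to 0.0022. The interaction ran from -0.13 to 0.085 in Pdk1, -0.19 to 0.011 in Pdk2, -0.020 to 0.10 in Pdk3 and -0.0077 to 0.21 in Pdha1. Unfasted mutants over fasted heterozygotes ran from -0.051 to 0.10 in Pdk1, -0.085 to 0.095 in Pdk2 and -0.042 to 0.17 in Pdha1, and fasted mutants over unfasted heterozygotes from -0.030 to 0.12 in Pdk2.

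Over all genes, the fit of only the arrays compared called 764 genes in place of 1584 for genotype unfasted, 568 in place of 313 for the fast in heterozygotes and 33 in place of 667 for the fast in mutants, and array weights called 1029 for the fast in heterozygotes. Without unfasted mutant 1 the fast in mutants gave 1941 genes and without fasted mutant 2 it gave 224. Without unfasted heterozygote 3 genotype unfasted gave 698. Of genes called for genotype, 53.5% unfasted and 63.3% fasted were higher in mutants, and with median-centred arrays 34.3% and 43.4% were. For the fast in mutants 69.6% were higher and 57.4% with second quantile normalization. Arrays give no depth, and dim probe sets such as Pdk3 have values near the floor of the scale.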

Other observations

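Genes that insulin represses through FOXO factors, a route also known to act on Pdk4, were counted as well. Of 9 measured, 1 rose and 2 fell with genotype unfasted, 1 rose fasted, 2 rose with the fast in heterozygotes and 4 in mutants. In these comparisons 7.94%, 13.6%, 1.57% and 3.35% of all genes passed in either direction. The list medians were 0.12, 0.04, 0.60 and 0.44, against 0.01, -0.02, 0.01 and -0.01 over all genes. The 4 that rose with the fast in mutants were 2 without unfasted mutant 2 or fasted mutant 1, 2 or 3, and 0 in a fit of only the arrays compared. Igfbp1, a binding protein for insulin-like growth factors, read 9.40, 10.14, 7.93 and 9.37 in unfasted heterozygotes and 12.87, 12.41, 11.29 and 11.60 in unfasted mutants. Those groups lay wholly apart, and Igfbp1 rose by 2.83 ± 0.46 (limma adjusted p = 0.0021, at most 0.0076 with any array left out). It rose with the fast in heterozygotes by 2.13 ± 0.46 (limma adjusted p = 0.027), a call lost without unfasted heterozygote 3 or 4 or fasted heterozygote 1, 3 or 4 (limma adjusted p up to 0.096), and its fasted genotype difference was 0.98 ± 0.46 (limma adjusted p = 0.16).

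G6pc, the last enzyme of glucose release, ran the other way in unfasted mutants. It read 12.81 to 13.02 in unfasted heterozygotes, 12.79 to 13.24 in fasted heterozygotes, 11.68 to 12.69 in unfasted mutants and 12.74 to 13.24 in fasted mutants. It fell by 0.74 on the log2 scale with genotype unfasted (SE 0.17, limma adjusted p = 0.017, lost without unfasted mutant 2 or unfasted heterozygote 3, up to 0.055) and rose with the fast in mutants by 0.73 ± 0.17 (limma adjusted p = 0.031, lost without unfasted mutant 2 or fasted mutant 1, 2 or 3, up to 0.088). Fasted, the genotypes differed by -0.03 ± 0.17. Sesn3 fell with genotype unfasted by 0.51 (SE 0.12, limma adjusted p = 0.016, lost without unfasted heterozygote 3 or 4, up to 0.063), and Insr, the insulin receptor, rose with the fast in mutants by 0.20 ± 0.05 (limma adjusted p = 0.049, lost without any array other than unfasted mutant 1 or fasted heterozygote 3, up to 0.12). In a fit of only the arrays compared these calls of G6pc, Sesn3 and Insr were lost, and with robust moderation that of Igfbp1 for the fast in heterozygotes.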
